A study of Laccaria bicolor with 37 samples.

Results

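The transcriptome of root-associated mycelium of *Laccaria bicolor* S238N was compared between 7 and 3 days of co-culture with poplar. The comparison rests on 6 of the 37 libraries of the series, 3 taken at 7 days post inoculation (dpi) and 3 taken at 3 dpi, chosen by their titles alone, and on all 23130 gene models. The libraries are named EcM here, after the label ectomycorrhizal root tips. For EcM, everything fungal up to 0.5 cm from a root of *Populus tremula x alba* 717-1B4 was collected together with the root parts attached to it. The samples therefore include hyphae near the root as well as hyphae on it, and root RNA besides fungal RNA. The same days were also sampled in extramatrical mycelium (ExM), which grew more than 0.5 cm from the roots of the co-cultures, and in free-living mycelium (FLM) on plates handled in the same way without a plant, each with 3 libraries a day. All samples were wild-type mycelium of 1 isolate, pre-cultured on sugar-reduced agar before the roots were added, and only the EcM extractions had polyethylene glycol added to the buffer. The labels call the libraries biological replicates, and nothing says whether those of a day came from separate plates.

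*L. bicolor* is a basidiomycete that forms ectomycorrhiza: its hyphae gather on the root surface, build a mantle around the root tip and then grow between the outer root cells as the Hartig net, where both partners exchange nutrients. While contact is being made, the fungus secretes small proteins, some of which enter plant cells and change host signalling, and it changes its transport proteins, its cell surface and its wall. Both days belong to the early phase of contact, ahead of mature root tips. The RNA was measured in bulk, so fewer hyphae of 1 kind and less RNA per hypha cannot be told apart.

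Total counts of the 6 EcM libraries lay between 17354653 and 28869246, within the range of 13816157 to 36821709 over all 37 libraries, and the 10 gene models with the most counts took 12.23 to 16.13% of a library. Of the 23130 gene models, 15533 had enough counts to be tested. No library was a copy of another of its group, since 2 libraries of a group differed by at least 4.593 times what counting error alone gives. In EcM at 7 dpi, replicate 1 differed from replicates 2 and 3 by 65.499 and 55.627 times counting error. Replicates 2 and 3 differed by 13.879 times, and the pairs of 3 dpi by 8.968 to 20.883 times. Replicates 1 and 3 of EcM at 7 dpi each lay nearest to replicate 3 of ExM at 7 dpi. A gene model was called when its adjusted p was under 0.05 (quasi-likelihood F-test of edgeR, two-sided, Benjamini-Hochberg over all 15533) and its level differed at least 2-fold. Levels are CPM, counts scaled by the library total, which do not correct for transcript length, so they are compared between days and not between genes.

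Root-associated mycelium at 7 dpi differed from that at 3 dpi in 593 gene models, 3.82% of those tested. Of these, 377 (2.43%) were higher at 7 dpi and 216 (1.39%) were lower. The rises were the steeper ones: 84 gene models rose at least 4-fold, whereas 12 fell as much. With no minimum fold, 3933 gene models passed the adjusted p, 1901 higher and 2032 lower, so small shifts in both directions were common. All 3 libraries of 7 dpi stood above all 3 of 3 dpi for 363 of the 377 higher models, and below them for all 216 lower ones, against 6314 of all 15533 tested models (40.6%) whose groups were apart in either direction. The median log2 fold change over all tested models was 0.03, and the 95% interval of a single model spanned about 0.31 log2 on either side. Of the called models, 226 of 377 and 138 of 216 kept their call in each of 6 fits that left out 1 EcM library, and DESeq2 also called 372 and 211 of them.

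**Figure D1:**
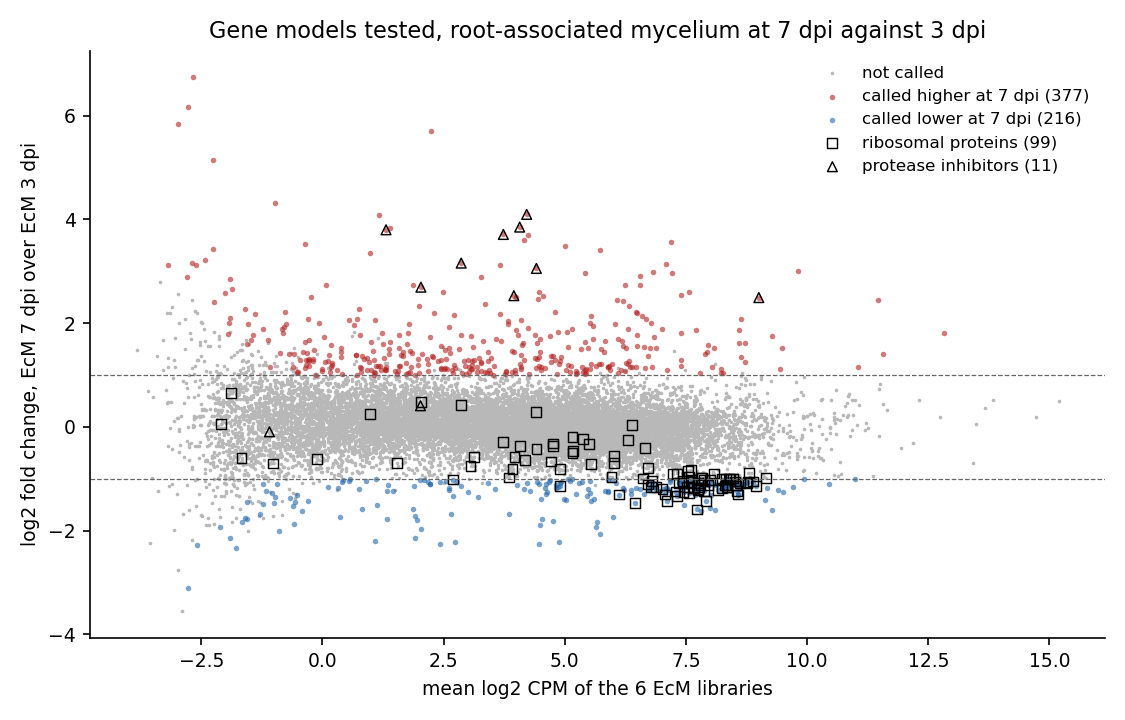
Log2 fold change of EcM at 7 dpi over 3 dpi (y axis) against the mean log2 CPM of the 6 EcM libraries (x axis) for the 15533 gene models tested; red points were called higher, blue points called lower, and dashed lines mark a 2-fold difference. Triangles (11 protease inhibitors) sit mostly high above 0, and squares (99 ribosomal proteins) lie together around a log2 fold change of -1.0.

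An annotation text was at hand for 292 of the 593 called models, 176 of the higher and 116 of the lower, and 150 belonged to at least 1 of the functional lists described below. Protease inhibitors, mycorrhiza-induced small secreted proteins, hydrophobins and amino acid permeases had the largest shares of members called higher, and ribosomal proteins the largest share called lower, apart from the study's own list of late EcM genes. Transcription factors (1.9% higher, 0.6% lower) had shares near the 2.4% and 1.4% of all tested models, and kinases (0.7% and 0%) had smaller ones. None of 23 cell cycle models was called, but a list of this size would hold few calls or none at those shares. With no minimum fold, 42 of 155 transcription factors, 21 of 141 kinases and 7 of 23 cell cycle models passed the adjusted p, against 3933 of 15533.

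**Figure D2:**
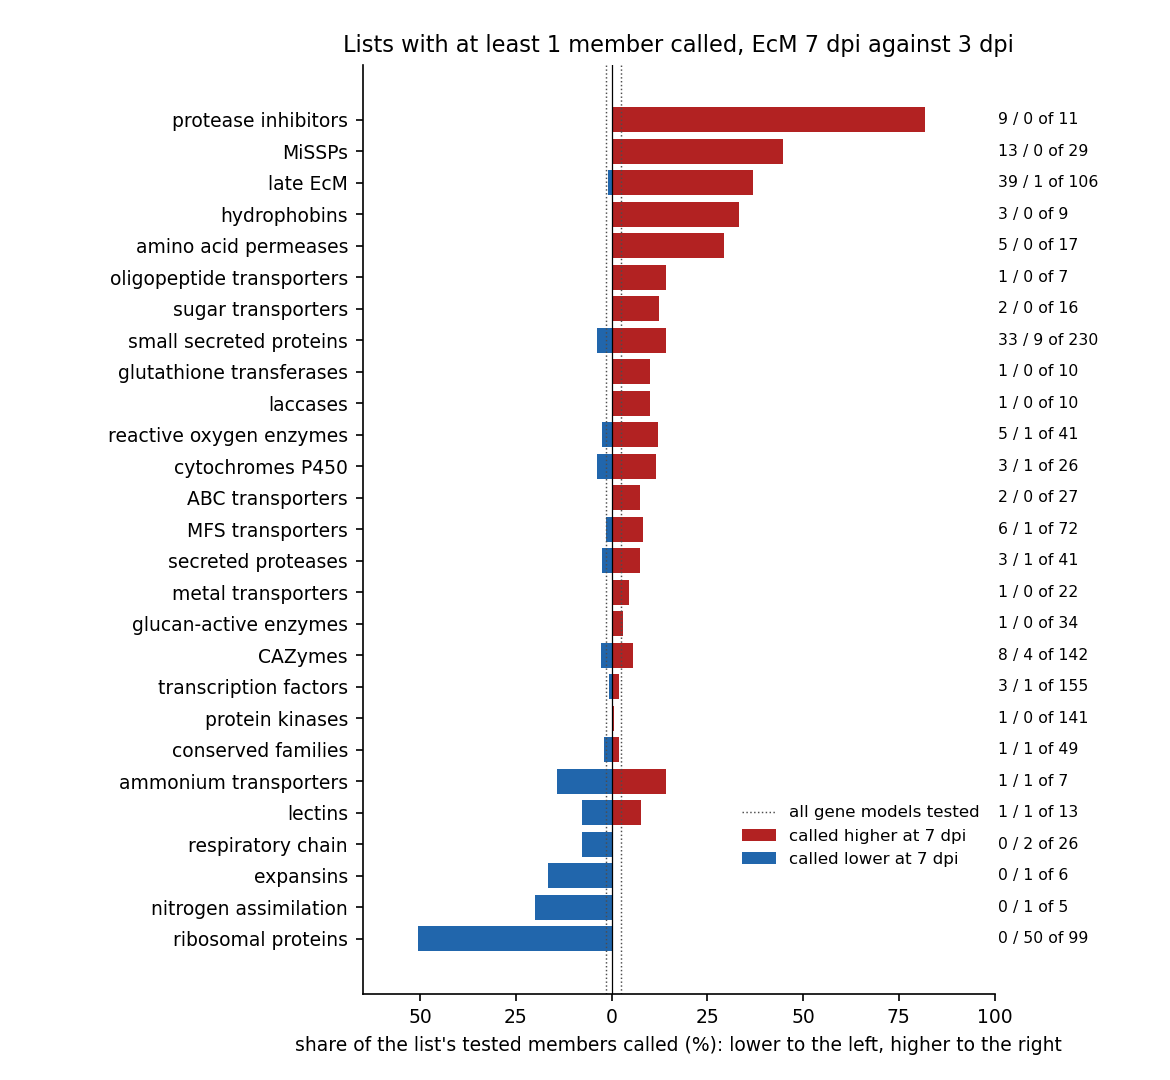
Share of each list's tested members called higher (red, right) and called lower (blue, left) in EcM at 7 dpi against 3 dpi, with counts as higher / lower of tested at the right; dotted lines mark the shares over all tested models, 2.43% and 1.39%. Protease inhibitors have 9 of 11 members higher and ribosomal proteins 50 of 99 lower.

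Of 11 tested protease inhibitors, 9 were called higher and none lower, with a median log2 fold change of 3.06 against 0.03 over all models. Most are clitocypins, a mushroom family of cysteine protease inhibitors known for resistance to heat and for activity against papain-like enzymes. Clitocypin 385833 had 117, 40.6 and 84.3 CPM in the 7 dpi libraries, against 5.56, 4.61 and 3.82 CPM in those of 3 dpi. It rose 17.1-fold (log2 fold change 4.1 ± 0.55 SE, adjusted p = 4.6e-06). Clitocypin 326016 had 65.4, 87.6 and 46.3 CPM at 7 dpi and 6.16, 4.21 and 3.13 CPM at 3 dpi, a log2 fold change of 3.85 ± 0.65 (adjusted p = 7.6e-05). The days did not overlap for either, and the lowest library of 7 dpi lay several-fold above the highest of 3 dpi.

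The remaining clitocypins that rose were 311135 (log2 fold change 3.71), 382297 (3.16), 326015 (3.06), 602958 (3.8) and 293826 (2.53). The steepest of these from a low start was 602958, with 11.8, 6.73 and 9.28 CPM at 7 dpi and 0.712, 0.769 and 0.456 CPM at 3 dpi. For 293826 the values were 31.1, 64.8 and 28.9 CPM at 7 dpi and 10.4, 7.91 and 2.73 CPM at 3 dpi, and its adjusted p of 0.0049 moved past 0.05 when only the 6 EcM libraries were fitted. Clitocypins resemble each other, and the counting could split reads between near-identical copies, so the share of a single copy is less certain than the rise of the family. The family also held 1 member that was not called, 318727, with 5.04, 5.33 and 3.66 CPM at 7 dpi against 3.49, 3.75 and 3.25 CPM at 3 dpi (adjusted p = 0.63).

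Inhibitors of other families moved with the clitocypins. The member with the most counts was 295829, annotated with a peptidase inhibitor I66 domain, at 946, 1866 and 953 CPM at 7 dpi against 256, 215 and 197 CPM at 3 dpi (log2 fold change 2.49 ± 0.66, adjusted p = 0.0065). A proteinase inhibitor I9 model, 476306, had 12.2, 8.36 and 11.3 CPM at 7 dpi and 2.14, 1.49 and 1.14 CPM at 3 dpi. The domain of 476306 is the kind that subtilisin-type proteases carry as a propeptide in other organisms. A second I66 model, 674342, was not called (log2 fold change -0.09). Summed over the list, the EcM libraries held 1408, 2175 and 1240 CPM at 7 dpi and 301, 253 and 224 CPM at 3 dpi. Of the 11 members, 7 belong to groups of genes that the study picked from these libraries as high in late EcM. Of the 4 others, 3 were called higher.

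Of cysteine proteases, the class that clitocypins are known to inhibit, a model that rose and a model that fell are given here. They were not counted as a list, and whether the clitocypins act on them was not tested. The cysteine-type endopeptidase 635298, annotated for bleomycin hydrolase activity, had 69.7, 39.4 and 85.1 CPM at 7 dpi against 6.66, 4.88 and 4.22 CPM at 3 dpi (log2 fold change 3.61 ± 0.4, adjusted p = 3.4e-07). A papain-like protease, 701323, had 12.6, 15.4 and 15.2 CPM at 7 dpi and 54.6, 48.7 and 47.3 CPM at 3 dpi (log2 fold change -1.8 ± 0.14), a fall with no overlap. Among the 41 tested members of the list of secreted proteases, 3 were higher and 1 lower.

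Small secreted proteins (SSPs) are short proteins with a signal peptide, and those induced in mycorrhiza are called MiSSPs. In *L. bicolor*, MiSSP7 is known to enter the nuclei of poplar root cells and to stabilise a repressor of jasmonate signalling, and MiSSP8 is needed for root colonisation. Of 32 MiSSP models, 29 were tested. Among these, 13 were called higher at 7 dpi and none lower, with a median log2 fold change of 0.82 and 27 of 29 above 0. The MiSSP labels come from studies of mycorrhizal root tips, and 4 of the 29 belong to the late EcM groups that the study picked on these libraries. Without them, 11 of 25 were higher. The count of 13 became 8 when the 6 EcM libraries were fitted alone, and 7 when list membership was taken from the study's annotation alone.

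The MiSSP with the most counts among those called was MiSSP19 (295729), with 518, 400 and 309 CPM at 7 dpi against 162, 148 and 143 CPM at 3 dpi (log2 fold change 1.44 ± 0.32, adjusted p = 0.0015). MiSSP32.1 (300377) had 229, 297 and 209 CPM at 7 dpi and 42, 35.3 and 32.5 CPM at 3 dpi (2.74 ± 0.47, adjusted p = 8.4e-05). MiSSP16.6 (315282) had 59.2, 48.4 and 55.7 CPM at 7 dpi and 9.44, 8.23 and 9.34 CPM at 3 dpi (2.6 ± 0.37, adjusted p = 7.9e-06). In these 3 genes the libraries of 1 day lay close together and far from those of the other day. MiSSP23.4 (293729), MiSSP11.8 (312262) and an unnamed MiSSP (307960) rose by 2.06, 1.98 and 2.37 on the log2 scale.

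Other MiSSP rises were less even across libraries. MiSSP7.6 (617208) had 22.7, 2.08 and 8.39 CPM at 7 dpi against 0.712, 0.543 and 0.684 CPM at 3 dpi, a 16.9-fold mean rise in which replicate 1 was far above replicate 2, and with the 6 EcM libraries fitted alone its adjusted p was above 0.05. MiSSP23.5 (325402) had 47.9, 4.26 and 8.77 CPM at 7 dpi and 5.77, 8.05 and 4.04 CPM at 3 dpi. Its days overlapped, and without replicate 1 of 7 dpi its log2 fold change was 0.13 (adjusted p = 0.86) in place of 1.76 (adjusted p = 0.02). Its call was lost, too, without replicate 1 (1.73, adjusted p = 0.063) or 3 (1.55, adjusted p = 0.089) of 3 dpi. The best studied member, MiSSP7 (298595, symbol MISSP7.2), was rare at both days, with 1.87, 2.64 and 0.75 CPM at 7 dpi against 0.534, 0.407 and 0.228 CPM at 3 dpi (2.08 ± 0.66, adjusted p = 0.019). The call of MiSSP7 was lost without replicate 2 of 3 dpi (2.08, adjusted p = 0.055), replicate 3 of 3 dpi (1.84, 0.077) or replicate 2 of 7 dpi (1.66, 0.1). For 333197 the call was lost without replicate 3 of 3 dpi (0.9, 0.076) or replicate 2 of 7 dpi (0.99, 0.065), and for 485570 without replicate 2 of 3 dpi (1.23, 0.062) or replicate 2 of 7 dpi (1.1, 0.078).

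Transcripts of 2 MiSSPs were close to absent at 3 dpi. Model 620230 had 25, 5 and 6 counts at 7 dpi and 0 counts in each library of 3 dpi, which is at least 4.64-fold higher when a floor of 3 counts a library is taken for 3 dpi. DESeq2 did not call it (adjusted p = 0.35). Model 596686 had 42 counts over the 3 libraries of 7 dpi and 1 count over those of 3 dpi, a ratio of 48.7 with a 95% counting interval of 8.28 to 1970. Neither had a count in any FLM or ExM library of these days. MiSSP8 (388224) had 1.2, 0.898 and 1.08 CPM at 7 dpi against 1.14, 0.995 and 0.513 CPM at 3 dpi, and MISSP17.8 (332226) had 2.18, 4.21 and 4.5 CPM at 7 dpi against 2.35, 2.13 and 1.54 CPM at 3 dpi. Neither of these was called (adjusted p = 0.79 and 0.14). The 16 tested MiSSPs that were not called had log2 fold changes between -0.35 and 0.84.

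The wider list of 230 tested SSPs had 33 members higher and 9 lower, with a median of 0.17. The largest fold change of the comparison among models with a mean above 2 CPM was that of an SSP annotated as specific to *L. bicolor*, 477175, which had 52.1, 16.0 and 38.1 CPM at 7 dpi against 0.819, 0.497 and 0.684 CPM at 3 dpi. That was a 52.0-fold rise (log2 fold change 5.7 ± 0.89, adjusted p = 3.3e-05). SSP 648174 had 206, 150 and 164 CPM at 7 dpi and 18.6, 13.9 and 16.5 CPM at 3 dpi (3.41 ± 0.49). Both were apart between the days by several-fold. The SSP with the most counts, 395948, had 4992, 5312 and 4402 CPM at 7 dpi against 1960, 1857 and 1759 CPM at 3 dpi (1.4 ± 0.43, adjusted p = 0.017), although without replicate 3 of 3 dpi the adjusted p was 0.059. SSPs also fell: 581333 had 29.2, 25.2 and 23.2 CPM at 7 dpi against 91.3, 109 and 93.1 CPM at 3 dpi (-1.92 ± 0.36), and 699309 fell by 2.2 on the log2 scale.

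Hydrophobins are small amphipathic proteins that coat aerial hyphae and the fungal surface of mycorrhizal roots. Of 10 models, 9 were tested and 3 were higher at 7 dpi, LbH12, LbH13 and LbH14. LbH13 (335058) had 5.2, 4.6 and 3.05 CPM at 7 dpi against 1.1, 0.859 and 1.08 CPM at 3 dpi (2.06 ± 0.34, adjusted p = 3.2e-05). LbH12 (241509) was barely expressed at 3 dpi, with 0.0712, 0.0452 and 0.171 CPM, against 1.87, 2.19 and 1.59 CPM at 7 dpi, a 19.8-fold rise (4.31 ± 0.7). Later EcM libraries held more of both, so that LbH13 averaged 1.02, 4.28, 29.5 and 18.1 CPM at 3, 7, 14 and 21 dpi. LbH14 (318421) had 8.37, 1.18 and 2.25 CPM at 7 dpi and 0.997, 1.04 and 0.684 CPM at 3 dpi, and without replicate 1 of 7 dpi it was not called (0.91, adjusted p = 0.12), nor was it with the 6 EcM libraries fitted alone (2.08, adjusted p = 0.14). The other 6 tested hydrophobins, LbH1, LbH8, LbH9 and LbH11 among them, were not called, and their log2 fold changes lay between -0.55 and 0.51.

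Transport proteins gave several of the even rises. The sugar symporter 704867 had 449, 534 and 425 CPM at 7 dpi against 96.6, 77.6 and 57.1 CPM at 3 dpi (2.6 ± 0.35, adjusted p = 4.1e-06), and its EcM means were 1803 CPM at 14 dpi and 2034 CPM at 21 dpi. Sugar importers of this kind are held to take up hexoses that the plant releases at the interface. Of 16 tested sugar transporters 2 were higher and none lower, and the median of the list was 0.37.

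Amino acid permeases carry amino acids across the plasma membrane, and 5 of 17 tested members were higher and none lower (median 0.53). Permease 254728, annotated as a polyamine transporter, had 30.6, 35.5 and 27 CPM at 7 dpi against 10.3, 8.41 and 6.49 CPM at 3 dpi (1.87 ± 0.24, adjusted p = 1.6e-06). Permease 188015 had 40.3, 35.5 and 35 CPM at 7 dpi and 13, 14.3 and 13.6 CPM at 3 dpi (1.44 ± 0.25). Permeases 296817 and 185515 rose by 1.65 and 1.08 on the log2 scale, also with no overlap between the days. The fifth, 300838, rose by 1.37, fell short of a 2-fold difference without replicate 1 of 7 dpi (0.98), and was not called with the 6 EcM libraries fitted alone (adjusted p = 0.074).

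The ABC transporter 314719, with a domain of the CDR type known from drug exporters of yeasts, had 458, 296 and 218 CPM at 7 dpi against 96.8, 98.7 and 81.9 CPM at 3 dpi (1.81 ± 0.22, adjusted p = 6.4e-07), and 250508 rose by 1.22. These were the 2 calls among 27 tested ABC transporters, whose median was 0.36. Of 72 transporters of the major facilitator superfamily 6 were higher and 1 lower. Among them, 297571 had 183, 141 and 133 CPM at 7 dpi against 45.2, 37 and 41.2 CPM at 3 dpi (1.88 ± 0.18), and 250962 had 9.56, 12.1 and 13.5 CPM at 7 dpi against 43.4, 40.7 and 46.9 CPM at 3 dpi (-1.9 ± 0.14, adjusted p = 5.8e-11). The oligopeptide transporter 301981 had 117, 71.8 and 84.3 CPM at 7 dpi and 38.3, 41.4 and 41.8 CPM at 3 dpi (1.17 ± 0.33), a call that was lost without replicate 1 of 7 dpi (0.95, adjusted p = 0.058).

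A sulfate permease (186401), chosen after its values were seen, had 112, 94.4 and 98.1 CPM at 7 dpi against 35.8, 29.1 and 30.9 CPM at 3 dpi (1.67 ± 0.19). A potassium uptake permease of the KUP family (482899), chosen likewise, had 81.8, 87.4 and 111 CPM at 7 dpi against 37, 32.5 and 33.4 CPM at 3 dpi (1.44 ± 0.21). Both rose in all 3 libraries. Of 7 ammonium transporters, which import ammonium or move it within the cell, 1 was higher and 1 lower. AMT2.1 (300932) had 26.5, 30.9 and 27.1 CPM at 7 dpi against 56.5, 57.7 and 62.4 CPM at 3 dpi (-1.06 ± 0.12, adjusted p = 5.7e-08). AMT2.3c (313221) had 13.6, 21.2 and 14.9 CPM at 7 dpi against 7.9 ± 3.4 CPM at 3 dpi (SD, n = 3), where replicate 3 held 3.99 CPM. Its log2 fold change was 1.05 ± 0.23, and was no longer called without replicate 3 of 3 dpi (0.74), without replicate 2 of 7 dpi (0.83) or with the 6 EcM libraries fitted alone (1.05, adjusted p = 0.11). None of 6 aquaporins, channels for water and small solutes, was called, and with no minimum fold 0 passed the adjusted p. A list of this size would hold few calls or none at the shares over all models. The aquaporin 671860 had 42.5, 51.6 and 47.6 CPM at 7 dpi against 45.7, 38.7 and 24.4 CPM at 3 dpi (adjusted p = 0.32). The ferric reductase-like model 620058 was the only call among 22 metal transporters (1.58 ± 0.48) and was lost without replicate 3 of 3 dpi (1.28, adjusted p = 0.079).

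**Figure D3:**
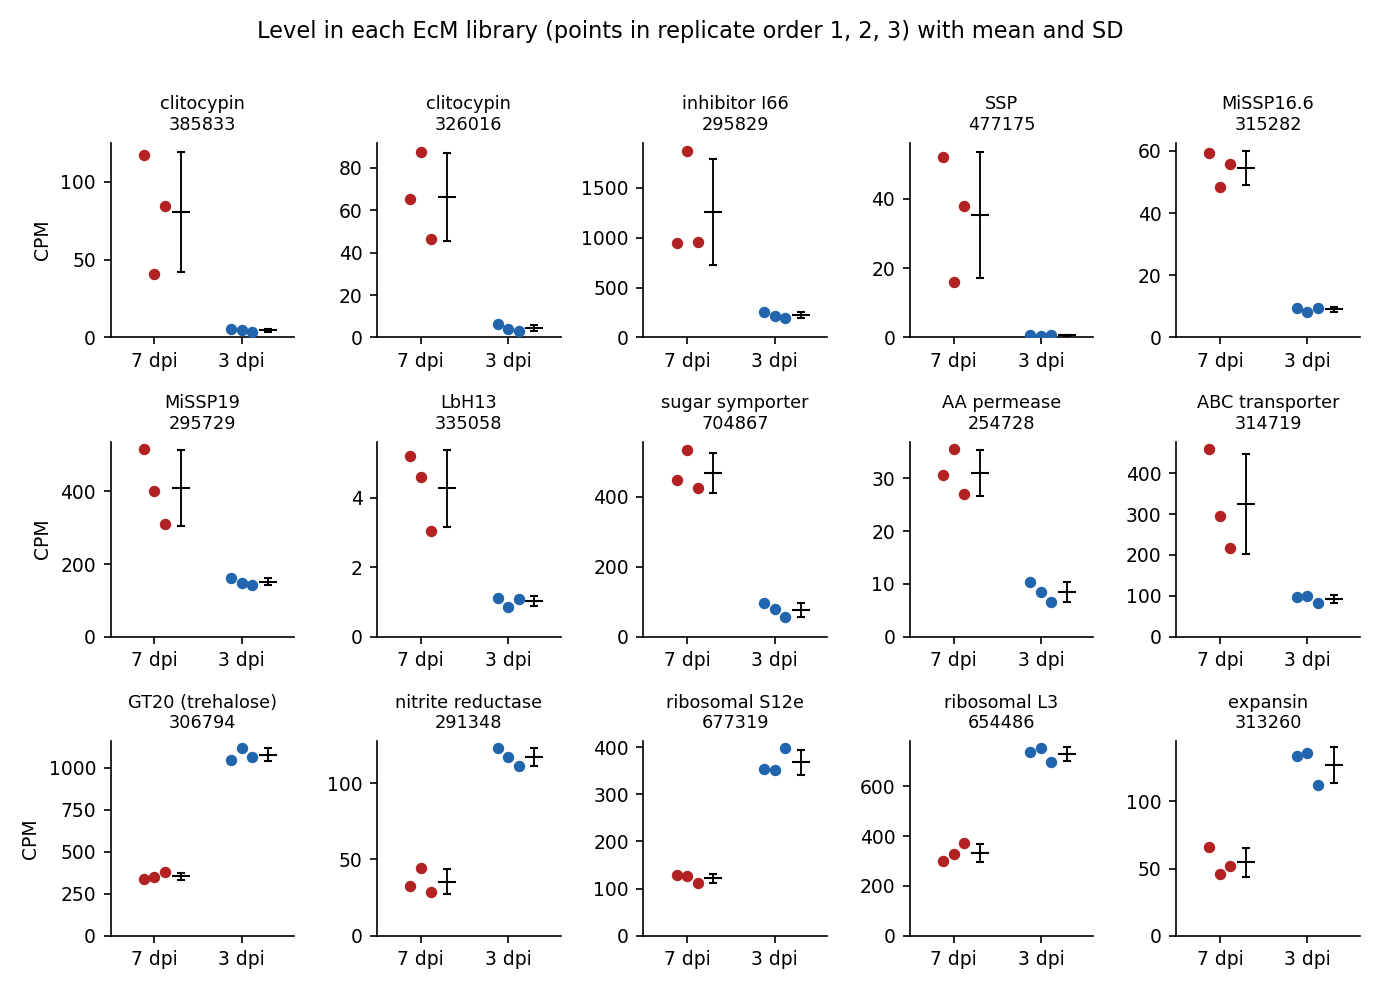
CPM of 15 gene models in each EcM library, with 7 dpi (red, left) and 3 dpi (blue, right) as points in replicate order and mean and SD beside them; each panel has its own axis from 0. In every panel the 3 libraries of 7 dpi lie on 1 side of the 3 of 3 dpi: above for the first 10 panels and below for the last 5.

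Carbohydrate-active enzymes build and cut polysaccharides of the fungal and plant wall, and ectomycorrhizal fungi keep few of the plant wall-degrading ones. Of 142 tested members 8 were higher (5.6%, against 2.43% of all models) and 4 lower (2.8%, against 1.39%), and the median was 0.1. The higher ones included oxidoreductases and a wall-modifying enzyme. The glucose-methanol-choline oxidoreductase 684961 (family AA3_2) had 32.6, 25.4 and 24.2 CPM at 7 dpi against 7.05, 6.24 and 4.73 CPM at 3 dpi (2.17 ± 0.22, adjusted p = 4.5e-08). A gluco-oligosaccharide oxidase model, 396511, had 286, 112 and 125 CPM at 7 dpi and 57.9, 54.4 and 40.3 CPM at 3 dpi (1.78 ± 0.31), with replicate 1 of 7 dpi far above the others. With the 6 EcM libraries fitted alone, 396511 was not called (1.77, adjusted p = 0.058), and neither was the GH3 model 189477 (1.1, adjusted p = 0.29). The polysaccharide deacetylase 307596 (family CE4, which acts on chitin in other fungi) had 3.22, 3.76 and 6.14 CPM at 7 dpi against 1.42, 1.13 and 1.14 CPM at 3 dpi, and averaged 53.1 CPM at 14 dpi. Laccase lcc6 (399748) rose by 1.21 ± 0.27. The GH3 model 189477 rose by 1.11 with all libraries and by 0.22 without replicate 1 of 7 dpi (adjusted p = 0.62), and its call was also lost without any 1 of the 3 libraries of 3 dpi (adjusted p between 0.051 and 0.07).

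Model 306794, annotated for trehalose synthesis (family GT20), had 337, 350 and 377 CPM at 7 dpi against 1048, 1122 and 1067 CPM at 3 dpi (-1.61 ± 0.16, adjusted p = 2.2e-08). Trehalose is a storage and stress-protecting sugar of fungi. The EcM means of 306794 were 1079, 355, 182 and 144 CPM at 3, 7, 14 and 21 dpi. The expansin-like model 313260 had 66.4, 45.7 and 51.8 CPM at 7 dpi and 134, 136 and 112 CPM at 3 dpi (-1.22 ± 0.33, adjusted p = 0.0066), the 1 call among 6 expansins, proteins that loosen plant cell walls. A lytic polysaccharide mono-oxygenase (family AA9, 298942) fell by 2.33, from a level under 1 CPM in all 6 libraries. None of 9 chitinases and none of 6 wall synthases was called, but lists of these sizes would hold few calls or none at the shares over all models. With no minimum fold, 3 of the chitinases passed the adjusted p (2 higher, 1 lower), and 1 of the wall synthases (lower).

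Some enzymes of oxidation and detoxification rose. The cytochrome P450 669382 had 33.2, 20.4 and 25.4 CPM at 7 dpi against 3.63, 3.53 and 3.47 CPM at 3 dpi (2.89 ± 0.26). The glutathione transferase 438154 had 281, 95.6 and 202 CPM at 7 dpi and 48.8, 41.4 and 24.2 CPM at 3 dpi (2.34 ± 0.47). These enzymes add oxygen or glutathione to a wide range of small molecules. Of 26 cytochromes P450 3 were higher and 1 lower. Of the higher ones, 315146 had overlapping days, and it was no longer called without replicate 1 of 7 dpi (0.47, adjusted p = 0.39) or replicate 3 of 3 dpi (1.32, adjusted p = 0.065). The call of 391085 was lost without replicate 1 of 7 dpi (0.7, adjusted p = 0.052). With the 6 EcM libraries fitted alone neither was called (adjusted p = 0.26 for 315146 and 0.11 for 391085). Of 41 models in the list of reactive oxygen enzymes 5 were higher and 1 lower, with a median of 0. That list was matched by words such as peroxidase and thioredoxin, which can also match domains of other enzymes. The call of its member 123238 was lost without replicate 2 or 3 of 3 dpi or replicate 1 of 7 dpi (adjusted p between 0.066 and 0.091). The Dyp-type peroxidase 392869 rose by 1.55 ± 0.46 and lost its call without replicate 1 or 3 of 3 dpi or replicate 3 of 7 dpi (adjusted p between 0.055 and 0.064).

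Among secondary enzymes chosen after their values were seen, the model annotated as phenylalanine ammonia-lyase (184628) had 234, 175 and 181 CPM at 7 dpi against 31.1, 31.4 and 25.5 CPM at 3 dpi (2.74 ± 0.19, adjusted p = 9.4e-11). An FAD-linked oxidase (318937) had 541, 336 and 392 CPM at 7 dpi and 65.6, 51.0 and 45.3 CPM at 3 dpi (2.97 ± 0.29). A model with oxalate oxidase activity in its annotation (464692) had 35.3, 42.3 and 37.7 CPM at 7 dpi and 8.41, 6.47 and 5.24 CPM at 3 dpi (2.5 ± 0.23). All 3 rises were several times larger than the spread within a day. The tyrosinase 295069, a copper enzyme of phenol oxidation and pigment formation, had the most counts of all called models, with 11584, 14694 and 14364 CPM at 7 dpi against 4436, 3459 and 3725 CPM at 3 dpi (1.81 ± 0.14, adjusted p = 2.1e-10). A ricin B lectin (292386), of a family of sugar-binding mushroom proteins, had 423, 425 and 350 CPM at 7 dpi and 127, 92.8 and 109 CPM at 3 dpi (1.86 ± 0.26).

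Of 155 transcription factors 3 were higher and 1 lower, a share near the 3.82% called over all models. Of 141 protein kinases 1 was higher, below that share. With no minimum fold, 42 of the 155 and 21 of the 141 passed the adjusted p, against 3933 of all 15533 models. The zinc cluster factor 579366 had 14.1, 15.1 and 11.7 CPM at 7 dpi against 6.45, 5.34 and 6.61 CPM at 3 dpi (1.15 ± 0.17). The other calls depended on single libraries. The C2H2 factor 667917, the bZIP factor 445028, the TEA/ATTS factor 456860 and the kinase 321390 passed with adjusted p of 0.041, 0.022, 0.021 and 0.036. Without replicate 3 of 3 dpi, 667917 had a log2 fold change of 0.99 (adjusted p = 0.17), 445028 of 0.94 (0.086) and 321390 of 0.87 (0.14), and without replicate 1 of 7 dpi they had 0.92 (0.18), 0.88 (0.096) and 0.81 (0.17). The call of 667917 was also lost without replicate 1 of 3 dpi (1.23, 0.09) or replicate 2 of 7 dpi (1.26, 0.065), that of 445028 without replicate 2 of 3 dpi (0.92, 0.093), and that of 321390 without replicate 1 or 2 of 3 dpi (both 1.11, 0.066 and 0.062) or replicate 2 of 7 dpi (0.9, 0.11). For 456860 the call was lost without replicate 2 of 3 dpi (-0.98, 0.066) or replicate 2 of 7 dpi (-0.94, 0.083). The Gti1/Pac2 factor 603166, a family that governs morphological switching in other fungi, had 3.01, 4.15 and 3.47 CPM at 7 dpi and 2.07, 1.76 and 0.741 CPM at 3 dpi (1.17 ± 0.31), with 0.87 (adjusted p = 0.051) without replicate 3 of 3 dpi. Away from the root it was close to absent, with 2 counts over the FLM libraries of 7 dpi and 3 over those of 3 dpi, and 3 counts over the ExM libraries of 7 dpi and 7 over those of 3 dpi.

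Ribosomal proteins fell together. Of 99 tested members 50 were lower at 7 dpi and none higher, and the median log2 fold change was -1.0. With no minimum fold, 86 passed the adjusted p with a fall and 2 with a rise. In sum they made up 10436, 11681 and 12027 CPM at 7 dpi against 23802, 23257 and 24234 CPM at 3 dpi, so the list stood just at the 2-fold limit and the number called depended on it, with 42 to 58 called when 1 library was left out. Ribosomal protein S12e (677319) had 129, 127 and 111 CPM at 7 dpi and 353, 352 and 399 CPM at 3 dpi (-1.59 ± 0.24). Ribosomal protein L3 (654486) had 299, 328 and 371 CPM at 7 dpi and 739, 755 and 699 CPM at 3 dpi (-1.14 ± 0.25, adjusted p = 0.0013). The libraries of 1 day lay within a narrow band in both. Ribosomal protein transcripts are among the most abundant of growing cells and are known to be set together with growth rate in yeast.

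Several enzymes of primary metabolism were lower as well. The methionine synthase 641603 had 481, 622 and 589 CPM at 7 dpi against 1303, 1214 and 1263 CPM at 3 dpi (-1.16 ± 0.2, adjusted p = 7e-05). Of 4 models annotated for methionine or S-adenosylmethionine metabolism all 4 were lower (median -1.17). Of 25 sterol models 5 were lower and none higher, ERG5 and erg6 among them. Both groups were assembled after their values were seen, so these counts follow in part from the choice. Within the first, S-adenosylmethionine decarboxylase 709297, annotated for spermine and spermidine synthesis, lost its call without replicate 1 of 7 dpi (-0.86). The succinyl-CoA synthetase 661891, an enzyme of the citrate cycle, had 910, 990 and 971 CPM at 7 dpi and 1997, 2121 and 2036 CPM at 3 dpi (-1.1 ± 0.16). The nitrite reductase model 291348, which would reduce nitrite to ammonium, had 32.5, 44.4 and 28.9 CPM at 7 dpi against 123, 117 and 111 CPM at 3 dpi (-1.73 ± 0.21, adjusted p = 8.9e-07). It was the 1 call among 5 genes of nitrogen assimilation.

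An isopropylmalate dehydratase of leucine synthesis (441719), chosen after its values were seen, had 113, 125 and 148 CPM at 7 dpi and 399, 394 and 389 CPM at 3 dpi (-1.62 ± 0.22). A glutamate dehydrogenase-type model (292653), chosen likewise, had 321, 369 and 343 CPM at 7 dpi against 940, 900 and 910 CPM at 3 dpi (-1.41 ± 0.41, adjusted p = 0.013). Respiratory chain models were lower in 2 of 26 cases, with a median of -0.35, and of these the ubiquinol model 671968 fell short of a 2-fold difference without replicate 3 of 3 dpi (-0.98) or replicate 2 (-1.0 when rounded) or 3 (-0.93) of 7 dpi. Glycolysis (7 models, median -0.37) and the citrate cycle (4 models, median -0.36) had no call by their own lists. With no minimum fold, 14 of the 26 respiratory chain models passed the adjusted p, as did 4 of glycolysis and 3 of the citrate cycle. All of these passed with a fall, against 3933 of all 15533 models that passed in either direction. Breakdown of proline and ornithine went the other way: all 3 models found for it after values were seen were higher, with 453, 477 and 454 CPM at 7 dpi against 168, 155 and 158 CPM at 3 dpi for pyrroline-5-carboxylate dehydrogenase (188701; 1.52 ± 0.12, adjusted p = 2.1e-10). In that group ornithine transaminase 184382 lost its call without replicate 3 of 3 dpi (0.9, adjusted p = 0.071) or replicate 1 of 7 dpi (0.61, adjusted p = 0.16).

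No call was made among 27 heat shock proteins and chaperones, 23 cell cycle models, 47 F-box proteins, 15 mating pheromones and receptors and 5 terpene synthases. At the 3.82% called over all models, lists of these sizes would hold few calls or none. With no minimum fold, 10, 7, 8, 0 and 1 of them passed the adjusted p, in that order. The largest changes also included models of unknown function. Model 399683 had 549, 554 and 437 CPM at 7 dpi against 57.0, 38.8 and 34.3 CPM at 3 dpi (3.56 ± 0.49), and 399271 had 2580, 2759 and 2299 CPM at 7 dpi against 364, 315 and 277 CPM at 3 dpi (3.0 ± 0.49). Among called models with a mean log2 CPM of 1 or more and no overlap of the days, the largest falls were those of a methyltransferase-annotated model, 484426 (-2.26 ± 0.44), and of 610459, which had 8.99, 9.93 and 11.3 CPM at 7 dpi against 51.3, 45 and 48.9 CPM at 3 dpi (-2.26 ± 0.4). The CsbD-like model 474038, another of the 12 largest falls, had an adjusted p of 0.04 with all libraries and of 0.055 to 0.1 when any 1 of the 6 was left out.

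Reads were fitted to fungal transcripts alone, so poplar reads of conserved genes could have been counted. Models of conserved families (histones, tubulins, actin, ubiquitin, elongation factors) summed to 5473 to 5703 CPM in EcM at 7 dpi and 7229 to 7771 CPM at 3 dpi, and to 5522 to 6159 CPM in ExM at 7 dpi and 7427 to 7787 CPM at 3 dpi, where no root was sampled. Of 49 such models 1 was higher and 1 lower. Their part in the differences between the days was not tested.

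The changes at the root were set beside those of the same days in ExM and FLM, which share no library with EcM, to see how far they also occurred away from it. Between 7 and 3 dpi, ExM changed in 488 models (3.14% of those tested), and 235 of the 377 models higher in EcM were also higher in ExM (62.3%, and 72.3% of the 325 higher in ExM). Of the 216 lower in EcM, 125 were lower in ExM (57.9%, and 76.7% of the 163 lower in ExM). FLM changed in 220 models (1.42%), and shared 71 of the 377 (18.8%, and 76.3% of the 93 higher in FLM) and 55 of the 216 (25.5%, and 43.3% of the 127 lower in FLM). No model was called in opposite directions. The count in FLM depended on 1 library, since it was 437 without replicate 2 of 3 dpi, a library whose nearest neighbour was FLM of 7 dpi, and 128 or 119 without replicate 1 or 3 of 3 dpi.

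Most EcM calls leaned the same way without a plant. The 377 higher models had a median log2 fold change of 1.4 in EcM, 1.2 in ExM and 0.57 in FLM, and the 216 lower models -1.19 in EcM, -1.04 in ExM and -0.84 in FLM. In FLM, 326 of the 377 had a log2 fold change above 0 (86.5%, against 51.4% of all tested models). Across all tested models, the log2 fold changes of EcM and ExM had a Pearson r of 0.7 and those of EcM and FLM of 0.51, over gene models that are not independent of each other. Ribosomal proteins were lower at 7 dpi in all 3 kinds of mycelium, with 50 members called in EcM, 37 in ExM and 14 in FLM and medians of -1.0 in EcM, -0.91 in ExM and -0.82 in FLM, and trehalose synthesis model 306794 changed by -1.61, -1.44 and -1.26. The tyrosinase 295069 rose by 1.81, 1.79 and 1.52.

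**Figure D4:**
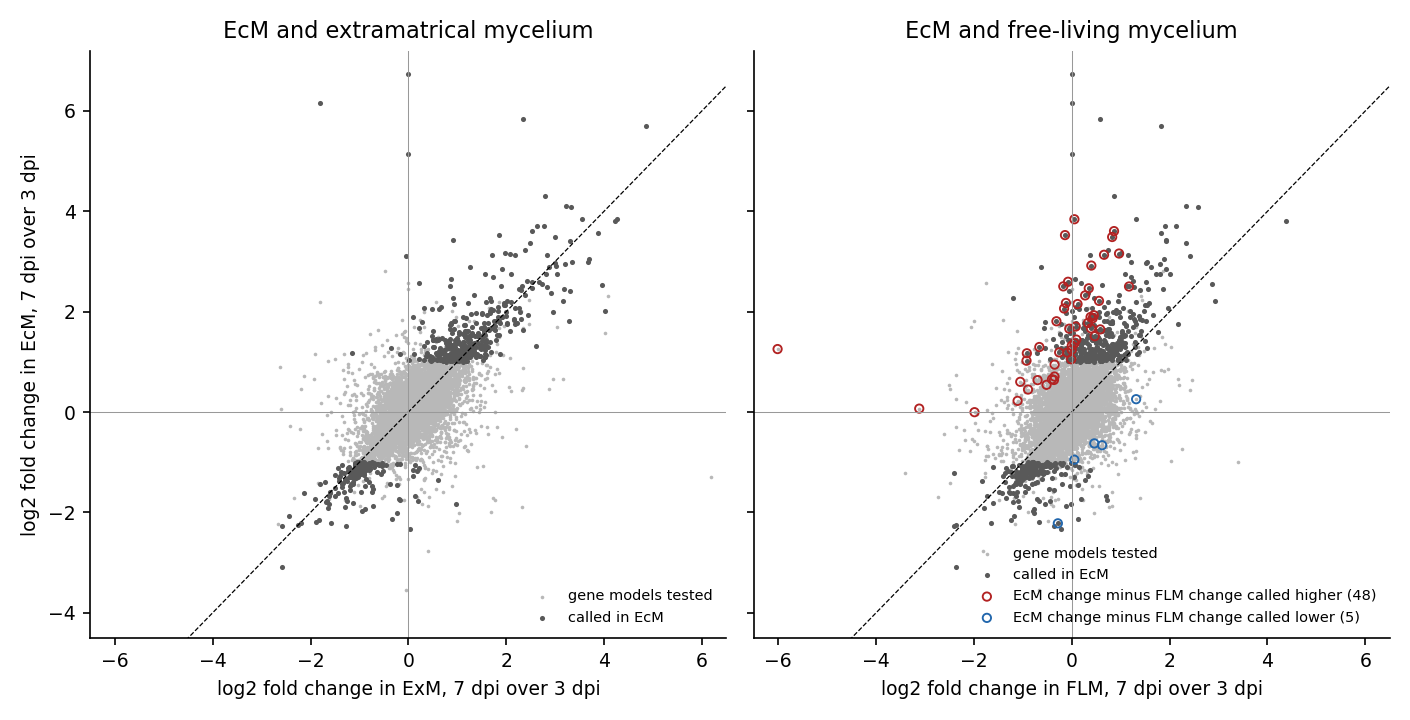
Log2 fold change of EcM at 7 dpi over 3 dpi (y axis) against that of ExM (left) and FLM (right) for the 15533 tested models, with models called in EcM in dark grey; rings mark the 48 models whose EcM change was called above (red) and the 5 called below (blue) their FLM change. On the left the called models follow the dashed line of equal change, while on the right many of the higher ones lie above it.

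Whether the change at the root exceeded that of the other mycelia was tested model by model. Against ExM, no model differed (0 of 15533, 0%), and DESeq2 also called 0. At an unadjusted p under 0.05 there were 393 models by edgeR and 410 by DESeq2. Both are smaller shares than the 0.05 that would pass if no model differed. The 95% interval of the difference between the EcM and ExM changes, before any adjustment, spanned about 0.44 log2 on either side for a typical model. A call needs a larger difference than that: in simulated counts for the difference between EcM and FLM, 27 of 50 differences of 2-fold and 48 of 50 of 3-fold were called. A true difference of 2-fold lies just at the limit for a call. The simulation gave every model the same spread, so it may overstate what the test against ExM would find. The 0 calls therefore do not show that both mycelia changed alike. Against FLM, 53 models differed (0.341%), 48 with the higher and 5 with the lower change in EcM. Of the 48, 36 were called higher in EcM, 5 were called lower in FLM, and 7 were called in neither. This count was less stable than that of the days, with 17 to 85 models when 1 of the 12 libraries was left out. The lowest, 17, came without replicate 3 of EcM at 3 dpi and the highest without replicate 2 of FLM at 3 dpi, whereas 25 or 26 were left without replicate 2 of EcM at 3 dpi, replicate 1 of EcM at 7 dpi or replicate 1 of FLM at 3 dpi, and 33, 30 and 29 without replicate 1, 2 or 3 of FLM at 7 dpi. DESeq2 called 80, with 47 of the 48 and all 5. Polyethylene glycol was used in EcM extractions of both days and in no FLM extraction, and its part in these differences was not tested.

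Of the 48 models, 13 kept their call without any 1 of the 12 libraries. Among them were MiSSP16.6, the ABC transporter 314719 and the oxidoreductase 684961. MiSSP16.6 (315282) averaged 54.5 CPM at 7 dpi and 9.0 CPM at 3 dpi in EcM, and 11.4 CPM at 7 dpi and 12.2 CPM at 3 dpi in FLM (difference of the changes 2.67 ± 0.51, adjusted p = 0.0094). The ABC transporter 314719 averaged 324 CPM at 7 dpi and 92.5 CPM at 3 dpi in EcM, and 100 CPM at 7 dpi and 125 CPM at 3 dpi in FLM (2.12 ± 0.3, adjusted p = 0.0005). Oxidoreductase 684961 rose by 2.17 in EcM and changed by -0.12 in FLM (2.29 ± 0.31, adjusted p = 0.00038). In ExM the log2 fold changes of 315282, 314719 and 684961 were 2.52, 0.94 and 1.95. Models of unknown function with a kept call were 309859 (3.49 in EcM and 0.82 in FLM, difference 2.66 ± 0.32) and 699360 (2.47 and 0.35, difference 2.12 ± 0.3).

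Further members of the 48 were called with all libraries and lost the call with some. The cysteine endopeptidase 635298 had log2 fold changes of 3.61 in EcM and 0.86 in FLM (2.74 ± 0.54, adjusted p = 0.012, and 0.059 without replicate 3 of EcM at 3 dpi). The sulfate permease 186401 averaged 58.6 CPM at 7 dpi and 44.7 CPM at 3 dpi in FLM, and its difference of 1.27 ± 0.27 (adjusted p = 0.02) was kept in 7 of 12 fits. The potassium permease 482899 averaged 46.1 CPM at 7 dpi and 43.3 CPM at 3 dpi in FLM (1.35 ± 0.29, adjusted p = 0.024), kept in 6 of 12. Hydrophobin LbH13 (335058; 2.22 ± 0.52, adjusted p = 0.036), clitocypin 382297 (2.19 ± 0.5, 0.035) and permease 254728 (1.44 ± 0.34, 0.041) were kept in 3, 4 and 2 of 12, with the adjusted p at most 0.14 in the fits that lost them. Of the protease inhibitors as a list, 5 of 11 were called higher in FLM (median 1.26) and 9 in ExM (median 2.84), and 382297 was the 1 member whose change was called different from that in FLM. Of the MiSSPs, 1 of 29 was called in FLM (median 0.18) and 7 in ExM (median 0.46).

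Among the 5 models with the lower change in EcM was Hsp70 656443, a chaperone, with 1699, 1981 and 2013 CPM at 7 dpi against 3727, 3718 and 3555 CPM at 3 dpi in EcM, and means of 2555 CPM at 7 dpi and 2464 CPM at 3 dpi in FLM. Its log2 fold change of -0.95 in EcM was short of a 2-fold difference, and its difference from FLM was -1.0 ± 0.18 (adjusted p = 0.0038). Without replicate 2 of EcM at 3 dpi, replicate 1 of EcM at 7 dpi, replicate 1 or 3 of FLM at 3 dpi or replicate 1 of FLM at 7 dpi the difference was -0.93 to -1.0 and just missed the 2-fold limit, with an adjusted p of at most 0.023. Model 659763 was not among these 5 models but was one of the 5 called falls with the most counts in EcM. It had a log2 fold change of -1.01 in EcM (-0.93 without replicate 1 of 7 dpi) and of -0.02 in FLM. The difference between these 2 changes was not called.

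Lists taken from the study's own groups of co-regulated genes, which it chose on these samples and which are therefore not independent, were also followed. Of 106 tested late EcM genes 39 were higher at 7 dpi and 1 lower, with a median of 0.73 in EcM, 0.51 in ExM and 0.1 in FLM. By contrast, none of 25 genes of the early plant response and none of 7 genes named for EcM at 7 dpi was called between the days. Their libraries were far apart within a day: the early genes summed to 5955, 790 and 1161 CPM at 7 dpi against 2178, 3025 and 871 CPM at 3 dpi. All 25 and all 7 were highest in replicate 1 of 7 dpi, with a median ratio to the mean of replicates 2 and 3 of 6.15 and 5.98, whereas over all tested models replicate 1 was highest for 37.3% with a median ratio of 0.98. Without replicate 1 of 7 dpi, 3 of the 25 were lower at 7 dpi, none was higher, and the median was -1.01 in place of 0.24. ExM libraries varied in a like manner, with 520, 2791 and 3561 CPM at 7 dpi and 705, 2765 and 1972 CPM at 3 dpi, and FLM libraries held 108 to 164 CPM.

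**Figure D5:**
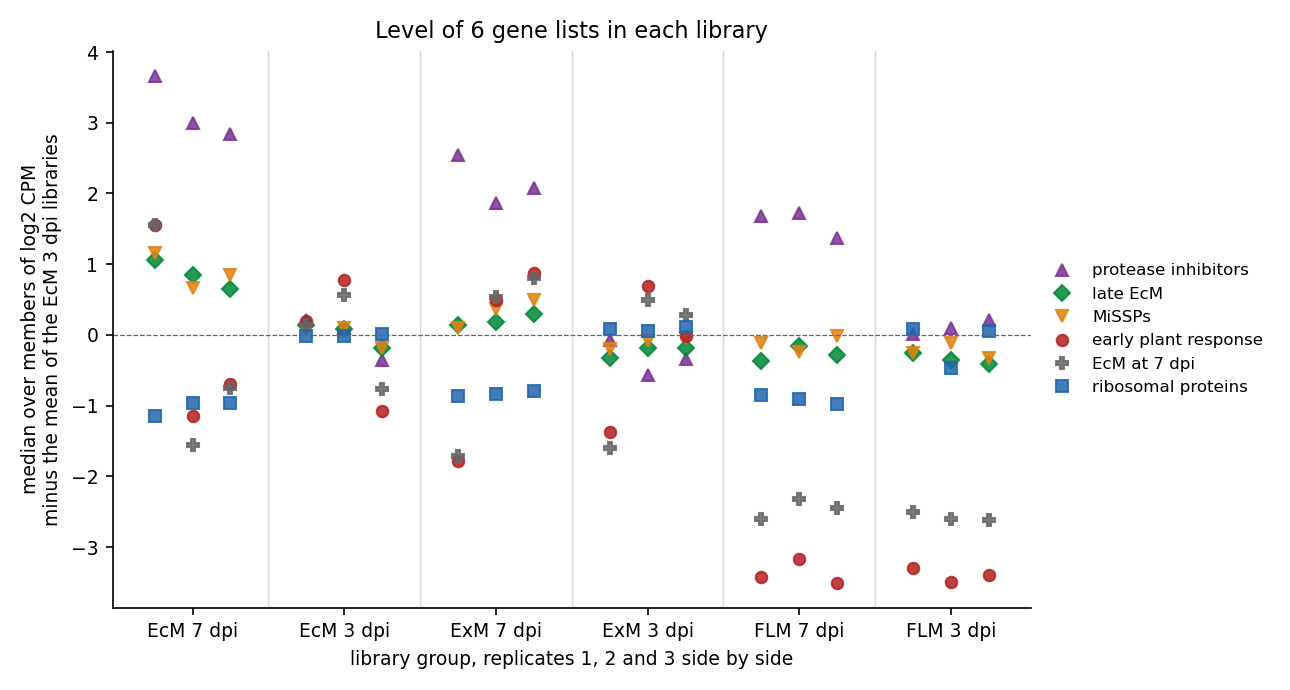
Median over the members of 6 lists of log2 CPM minus the mean of the 3 EcM libraries of 3 dpi (y axis), for each library of EcM, ExM and FLM with 7 dpi left of 3 dpi and replicates 1, 2 and 3 side by side. Protease inhibitors and late EcM genes are higher and ribosomal proteins lower in all 3 EcM libraries of 7 dpi, while the early plant response lies at 1.56, -1.15 and -0.7 there and at 0.2, 0.77 and -1.07 in EcM of 3 dpi.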

How the data were processed

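Messenger RNA libraries were prepared with a strand-specific kit and sequenced as paired reads. Per the labels and the methods, the authors trimmed the reads, aligned them to the version 2 gene models of *L. bicolor* with CLC Genomics Workbench and deposited 1 table per library, with raw counts and with RPKM, the count per length of transcript and per total of mapped reads. The authors tested counts with DESeq2. The deposited counts were used here and the RPKM column was not. The column does not say whether reads that fit several transcripts were included, so near-identical copies are uncertain.

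Samples were grouped by their titles into 13 groups. All 37 libraries were fitted with edgeR 4.0.16 in R 4.3.3 (TMM scaling, filterByExpr by group, robust quasi-likelihood fit, 1 coefficient per group), p-values were adjusted after Benjamini-Hochberg over all gene models tested, and DESeq2 1.42.0 was an alternative. Log2 fold changes shown in the text are those of the fit, which kept its default prior count. A prior count of 1 was used for log2 CPM values only. On simulated counts for the comparison of the days in EcM, on 15136 models, 48 of 50 changes of 2-fold passed the adjusted p and 28 of 50 were also called, and 50 of 50 of 4-fold were called. For the difference between EcM and FLM, 36 of 50 changes of 2-fold passed and 27 of 50 were called, and 49 of 50 of 4-fold were called. The simulated counts had 1 common coefficient of variation of 0.142 for all models and libraries. Only models of at least 1 CPM were changed, so shares found in the real data may be lower. P-values measure the spread between libraries of a group, estimated over all 37 libraries together and not over the EcM libraries compared alone. With only the EcM libraries of both days fitted, 523 models were called. Intervals on counts cover counting error only, at 95%, with 3 counts as the floor where a group had none.

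Named gene models were the 12 largest rises and falls among calls whose days did not overlap and whose mean log2 CPM was 1 or more, the 5 called models with the most counts in each direction, up to 4 called members of each list with the largest change and the 1 with the most counts, all members of the lists of MiSSPs, hydrophobins, protease inhibitors, ammonium transporters, aquaporins and genes of EcM at 7 dpi, 8 models that the study names, and those whose change differed between EcM and FLM. The members and the 39 lists were chosen with earlier results of these data known, and the match of annotation words to lists was set after the files were seen. Annotation came from the study's supplementary tables (3435 models) and from 351 symbols of the RefSeq V1.0 assembly, matched by the number in the locus tag (6580 models); that assembly holds older models than the counts do. No sequence or coordinate is printed. Alternatives were no fold limit, a 4-fold limit, DESeq2, other scalings and filters, the groups compared alone, a replicate block, the study's annotation alone and leaving out each library.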

Additional observations from a re-analysis of the deposited data

Results flagged for a closer look

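A change between 7 and 3 dpi that differed between EcM and FLM by the test of the difference itself (edgeR, adjusted over all gene models) was found among named models in the cases below, given as the EcM change minus the FLM change on the log2 scale. Calls that no left-out library ended were those of 309859 (2.66), 684961 (2.29), 314719 (2.12), MiSSP16.6 (315282, 2.67) and, in the other direction, 296675 (-1.08), a model without annotation that had a log2 fold change of -0.62 in EcM and 0.46 in FLM.

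Calls that leaving out 1 library could end were those of cysteine endopeptidase 635298 (2.74), LbH13 (335058, 2.22), clitocypin 382297 (2.19), oligopeptide transporter 301981 (2.09), amino acid permease 254728 (1.44), Hsp70 656443 (-1.0), 295282 (-1.06), 329188 (-1.28) and 333792 (-1.93). Model 333792 had 3.38, 2.69 and 3.09 CPM in EcM at 7 dpi against 12, 14.5 and 16.3 CPM at 3 dpi, and averaged 6.14 CPM at 7 dpi and 7.43 CPM at 3 dpi in FLM.

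The largest values belonged to models with few counts. The carbonate dehydratase CAN2.1 (299838, 3.67) averaged 3.27 CPM at 7 dpi and 0.251 CPM at 3 dpi in EcM, and 0.447 CPM at 7 dpi and 0.505 CPM at 3 dpi in FLM. Model 706368 (3.79) averaged 9.97 CPM at 7 dpi and 0.673 CPM at 3 dpi in EcM, and 2.09 CPM at 7 dpi and 2.04 CPM at 3 dpi in FLM. The methyltransferase model 543626 (3.19) moved in FLM, with 0.689 CPM at 7 dpi and 5.93 CPM at 3 dpi, while EcM had 2.06 CPM at 7 dpi and 1.95 CPM at 3 dpi. LbRaf (316565, 7.27) had 0 counts in the FLM libraries of 7 dpi and 2, 19 and 6 counts in those of 3 dpi. Its fitted value therefore depends on the prior count of the fit. With a floor of 3 counts a library LbRaf was at least 3.61-fold lower at 7 dpi in FLM. Leaving out 1 library ended the call in 10 of 12 fits for 299838, 706368 and 543626 and in 9 of 12 for 316565.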

How the results depend on the processing

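The call count of the days in EcM was 593, 513 to 670 when 1 library was left out and 602 with DESeq2. It was 3933 with no fold limit and 96 with a 4-fold limit, since most differences were under 2-fold. The count of models that differed between the EcM and FLM changes was 53, with 80 by DESeq2 and 17 to 85 when 1 library was left out. In FLM the count of 220 became 119 to 437 when 1 library was left out. The 13 MiSSPs called became 8 when the 6 EcM libraries were fitted alone and 7 with the study's annotation alone. Early plant response genes called were 0, and 0 to 3 when 1 library was left out. The cause of these shifts was not tested, apart from the fold limits. No call of a named model changed direction. The median of the early plant response list did, falling from above 0 to below 0 without replicate 1 of 7 dpi. Of named results under the other settings 888 stayed on their side of the threshold and 28 lost the call; among fits without 1 library 853 stayed, 67 lost it and 3 gained it. Scaling by median-of-ratios size factors moved the median of all models by -0.008 log2.

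Whether replicate numbers pair the samples is not settled by the counts. Deviations of EcM libraries with the same number at 7 and 3 dpi correlated by 0.075, -0.226 and 0.145, and with different numbers by -0.307 to 0.302. With the same number they correlated by 0.314, 0.139 and 0.082 in ExM and by -0.012, -0.052 and -0.052 in FLM. Different numbers gave -0.309 to 0.245 in ExM. With the replicate block over all libraries 588 models were called, and with the block in the 6 EcM libraries alone 504. Named models that lost the call in the latter included glutathione transferase 438154 (2.27, adjusted p = 0.13) and clitocypin 311135 (3.52, adjusted p = 0.073). An alternative count column was not tried, since each file held 1. Transcripts near 1 CPM, MiSSP7 and MiSSP8 among them, rest on few counts.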

Other observations

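Some groups of models were assembled after their values were seen and are given as values. Of 5 models of oxalate enzymes 2 were higher at 7 dpi in EcM and none lower. Of these, 469092 fell short of a 2-fold difference without replicate 2 of 7 dpi (log2 fold change 0.65), and 464692 averaged 6.7, 38.4, 96.4 and 159 CPM in EcM of 3, 7, 14 and 21 dpi. Of 4 indoleamine dioxygenases 2 were higher and none lower.

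A phosphatidylserine decarboxylase-related model (702542) had 1142, 593 and 799 CPM in EcM at 7 dpi against 248, 192 and 158 CPM at 3 dpi (log2 fold change 2.08 ± 0.27 SE). A membrane protein of the GPR1/FUN34 family (295862), which in other fungi exports or imports acetate and ammonium, had 1115, 960 and 1015 CPM at 7 dpi against 525, 477 and 428 CPM at 3 dpi (1.11 ± 0.17). The GTP-binding domain model 233905 did not pass the test in EcM, with 6.24, 4.1 and 5.58 CPM at 7 dpi and 5.66, 5.7 and 4.56 CPM at 3 dpi, and averaged 1.62 CPM at 7 dpi and 6.44 CPM at 3 dpi in FLM (difference of the changes 1.99 ± 0.38, adjusted p = 0.0082).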
